A study of Homo sapiens with 8 samples.

Results

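The genes described here encode the mitotic spindle, the kinetochore and the machinery that drives cells through mitosis. They were named by symbol: 45 genes in 10 roles, among the 18417 genes that had a probeset with 1 gene symbol on the arrays. A probeset is the group of probes that reads 1 transcript region. Of the 45 genes, 44 were measured, each at its brightest probeset. CENPA, which encodes the centromere histone, was read only at a probeset that it shares with SLC35F6, so no value is given for it. They were chosen by symbol, with earlier results of these data known.

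RNA came from DU145, an epithelial line established from a human prostate cancer, kept in serum-free medium before treatment. The 4 groups, with 2 arrays each, were FGF19 + TNFα, FGF19, TNFα and Mock. FGF19 is a ligand of the receptor tyrosine kinase FGFR4, and TNFα is an inflammatory cytokine. By the sample labels, FGF19 was given at 50 ng/ml with 100 µg/ml heparin for 100 min, TNFα at 50 ng/ml for 90 min, and the combined group received both. The methods of the study give lower doses of heparin and of TNFα. Heparin is named only for the groups given FGF19, so FGF19 and heparin cannot be told apart, and "FGF19" below means both together. The labels call the 2 arrays of a group biological replicates without saying which cultures they came from. The p-values measure only the spread between these arrays.

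At mitosis, condensin compacts the chromosomes, the kinetochore forms on each centromere and grips spindle microtubules through the NDC80 complex, and kinesins move chromosomes and shape the spindle. Unattached kinetochores keep the spindle checkpoint active, which holds back CDC20 and so the anaphase-promoting complex (APC/C), the ubiquitin ligase that destroys cyclin B and releases the sister chromatids. Most of these genes are transcribed late in the cell cycle, through CCAAT boxes bound by NF-Y and through the cell cycle genes homology region (CHR), bound by the DREAM and B-MYB-MuvB complexes. RNA was extracted from whole cultures, so fewer cells near mitosis and less RNA per cell cannot be told apart.

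Values are PLIER signals, which are linear and have no unit, and differences are given on the log2 scale with their standard error (SE). A gene is called higher or lower at a Benjamini-Hochberg adjusted p under 0.05 in limma, fitted to all 8 arrays and adjusted over all 33297 probesets. Array medians lay between 99.54 and 106.63. The log2 signals of replicate arrays had a correlation of 0.967 to 0.980 over all probesets, and those of arrays unlike in FGF19 one of 0.933 to 0.959. Of 9 markers listed for a prostate epithelial line, 6 ranked above the 80th percentile of brightness: KRT18, KRT7, KRT8, EPCAM, KRT19 and CDH1, at the 98.3, 95.2, 94.9, 92.7, 88.8 and 83.3 percentiles. The FGF19 receptor gene FGFR4, its co-receptor gene KLB and KRT5 ranked lower, at the 56.8, 51.0 and 49.1 percentiles. None of the 9 fibroblast and muscle markers and none of the 8 measured blood and endothelial markers ranked above the 80th percentile, whereas 40 of the 44 spindle and kinetochore genes did.

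Most of these genes differed with FGF19, and they differed in both directions. Of 44 genes, 22 (50%) were higher and 11 (25%) lower in the 4 arrays given FGF19 than in the 4 arrays without it, against 28% of all probesets higher and 18.9% lower. Spindle and kinetochore genes are brighter than most probesets, and among the 11217 probesets at least as bright as the dimmest of them, 32.9% were higher and 32.2% lower. The median difference was 0.20 for the 44 genes and 0.10 for all probesets. The values ran between −1.07 for CKS2 and 1.26 for CENPE. All 4 arrays given FGF19 lay above all 4 without it for 24 genes (25.5% of all probesets did so) and below them for 11 genes (18.4% of all probesets). The calls were mostly of moderate size: 10 genes passed 0.5 and 6 passed −0.5 (16% and 11.6% of all probesets), while CENPE alone passed 1 and CKS2 alone passed −1 (3.12% and 2.93% of all probesets). Leaving out 1 array at a time gave 19 to 22 higher and 8 to 12 lower.

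**Figure D1:**
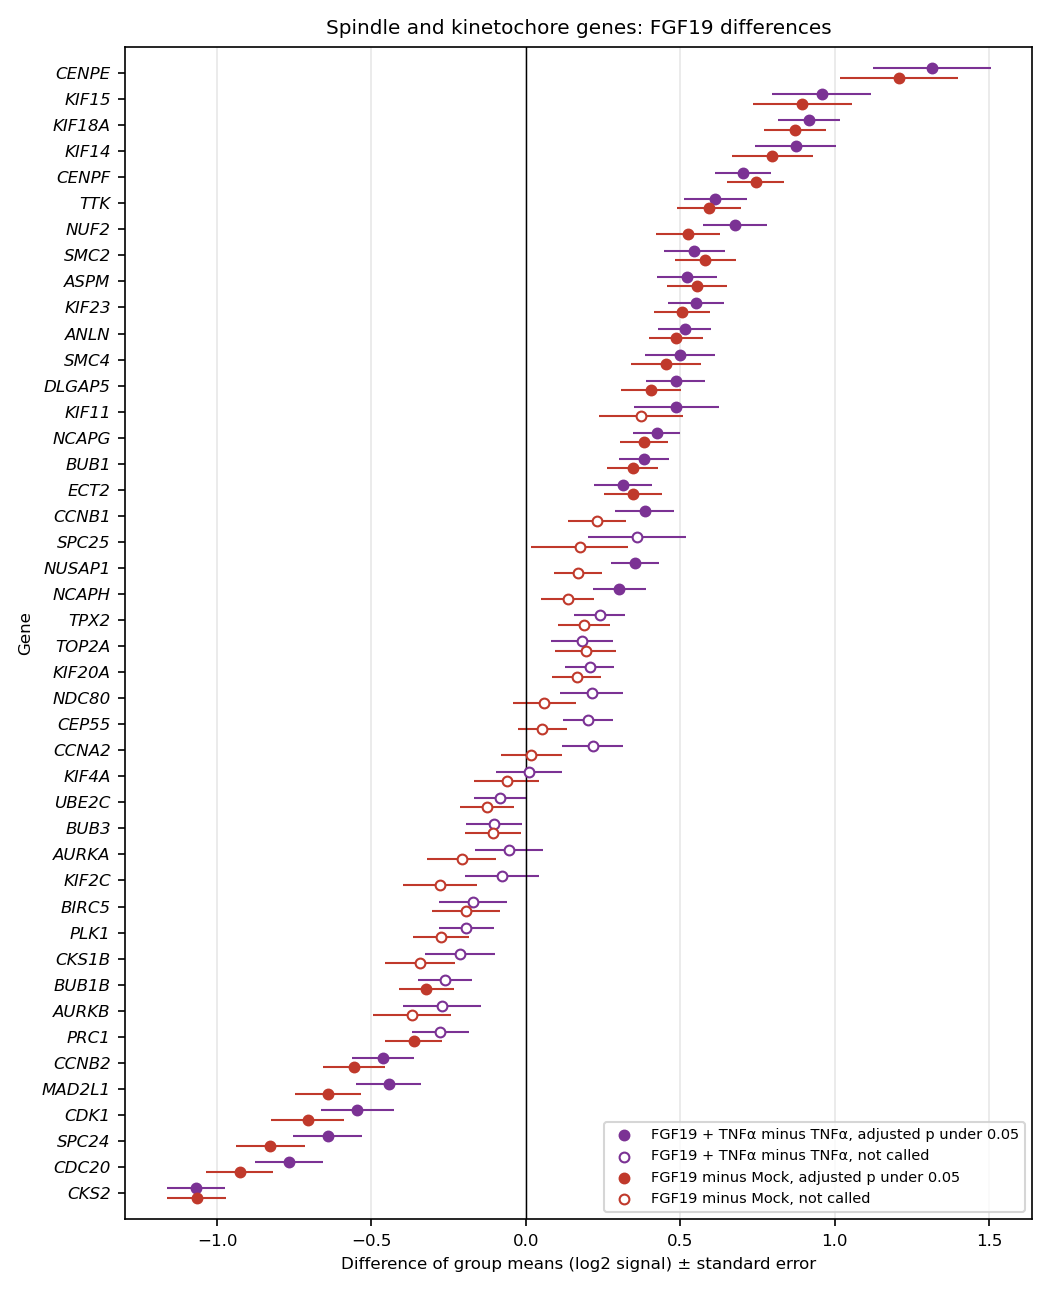
Difference of group means in log2 signal with its standard error for the 44 genes, ordered by their averaged FGF19 difference; purple points are FGF19 + TNFα minus TNFα, red points FGF19 minus Mock, and filled points have an adjusted p under 0.05. The paired points of a gene lie at most 0.20 apart, with CENPE at the top (1.31 and 1.21) and CKS2 at the bottom (−1.07 in both).

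The question whether FGF19 acted alike with and without TNFα was put to 2 comparisons whose group means share no array. Both take their standard errors from the same fit to all 8 arrays, so the 2 sets of calls are not independent. In FGF19 + TNFα against TNFα, 20 genes (45.5%) were higher and 6 (13.6%) lower, against 19.4% and 12.9% of all probesets. In FGF19 against Mock, 16 genes (36.4%) were higher and 8 (18.2%) lower, against 18.2% and 14.1% of all probesets. The medians were 0.23 and 0.17, against 0.10 and 0.08 over all probesets. Among the probesets at least as bright as the dimmest of the genes, 25% were higher and 22.8% lower in FGF19 + TNFα against TNFα, and 26.3% and 25.3% in FGF19 against Mock. Both FGF19 + TNFα arrays lay above both TNFα arrays for 27 genes (61.4%, against 42.4% of all probesets) and below them for 15 (34.1%, against 27.6%). Both FGF19 arrays lay above both Mock arrays for 24 genes (54.5%, against 39.1% of all probesets) and below them for 16 (36.4%, against 27.8%). Both comparisons called 16 genes higher and 6 lower, and no gene was called in opposite directions. Joint calls were not counted over all probesets, so this agreement is not shown to be particular to these genes. NUSAP1, NCAPH, CCNB1 and KIF11 were called higher only in FGF19 + TNFα against TNFα, and PRC1 and BUB1B lower only in FGF19 against Mock. None of these 6 genes passed the test of the difference itself. The interaction of FGF19 and TNFα called 0 of 44 genes in limma, and 0 of all 33297 probesets in either direction. It gave 0 of the 44 genes at an unadjusted p under 0.05, and 0 calls among them under every alternative setting run. Since this test called no probeset at all, it cannot set these genes apart from the rest. The interaction values of the 44 genes ran between −0.042 and 0.20, with a median of 0.078, against 0.029 for all probesets.

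Across the 44 genes the differences of the 2 comparisons correlated at r = 0.991, against 0.955 for the 11217 probesets at least as bright and 0.644 for all probesets. This is a description across genes, which are not independent, and all probesets were read on the same 8 arrays. KIF4A, a chromosome-bound kinesin, was the 1 gene of 44 with opposite signs, at 0.01 in FGF19 + TNFα against TNFα and −0.06 in FGF19 against Mock. The counts of each comparison depended on single arrays. In FGF19 + TNFα against TNFα, 20 higher became 10 and 9 without TNFα replicates 1 and 2, and 11 and 7 without FGF19 + TNFα replicates 1 and 2, and 6 lower became 2 and 3 without TNFα replicates 1 and 2 and 2 without FGF19 + TNFα replicate 2. In FGF19 against Mock, 16 higher became 7 and 10 without Mock replicates 1 and 2, and 10 when only those 2 groups were fitted.

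The genes at the ends of the range were CENPE and KIF15 above, and CKS2 and CDC20 below. CENPE, the kinesin of the outer kinetochore that carries chromosomes to the spindle equator, had signals of 839 and 828 in FGF19 + TNFα, 1121 and 755 in FGF19, 362 and 309.7 in TNFα, and 389 and 407 in Mock. The 4 arrays given FGF19 lay above the other 4, and the 2 FGF19 arrays lay further apart than any other pair. CENPE was 2.4-fold higher with FGF19 (log2 1.26, SE 0.14, adjusted p = 0.000825 in limma, 4 arrays against 4). CKS2, a small subunit that docks cyclin-dependent kinases on phosphorylated targets, had 418 and 473 in FGF19 + TNFα, 447 and 474 in FGF19, 928 and 938 in TNFα, and 941 and 986 in Mock. No array given FGF19 came near those without it. CKS2 was 2.1-fold lower with FGF19 (log2 −1.07, SE 0.067, adjusted p = 0.000435).

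The promoter windows of these 4 genes are shown because they stand at opposite ends of the FGF19 range. Their sequence elements played no part in the choice. The sequences come from RefSeq on GRCh38.p14 and are the 250 bases before the annotated start, read 5′ to 3′ in the direction of the gene: CKS2 at chr9:89310945-89311194 (plus strand), CDC20 at chr1:43358731-43358980 (plus strand), CENPE at chr4:103198344-103198593 (minus strand) and KIF15 at chr3:44761544-44761793 (plus strand). Capitals mark CCAAT boxes (CCAAT, or ATTGG on the other strand) and CHR elements (TTTGAA, or TTCAAA on the other strand).
CKS2: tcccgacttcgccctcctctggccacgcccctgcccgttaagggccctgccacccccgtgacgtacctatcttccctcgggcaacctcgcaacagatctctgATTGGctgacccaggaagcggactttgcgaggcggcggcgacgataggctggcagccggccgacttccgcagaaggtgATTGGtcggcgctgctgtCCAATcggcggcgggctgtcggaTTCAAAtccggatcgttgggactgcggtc
CDC20: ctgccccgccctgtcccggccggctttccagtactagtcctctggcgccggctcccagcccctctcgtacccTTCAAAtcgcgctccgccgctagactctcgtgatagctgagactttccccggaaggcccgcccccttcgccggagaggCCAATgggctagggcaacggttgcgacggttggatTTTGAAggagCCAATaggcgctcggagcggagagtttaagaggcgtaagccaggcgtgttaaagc
CENPE: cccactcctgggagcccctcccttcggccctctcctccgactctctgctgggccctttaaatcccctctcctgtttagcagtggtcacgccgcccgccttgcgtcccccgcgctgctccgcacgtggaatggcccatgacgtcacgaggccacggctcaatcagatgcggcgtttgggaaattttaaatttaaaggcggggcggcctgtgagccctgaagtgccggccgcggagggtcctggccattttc
KIF15: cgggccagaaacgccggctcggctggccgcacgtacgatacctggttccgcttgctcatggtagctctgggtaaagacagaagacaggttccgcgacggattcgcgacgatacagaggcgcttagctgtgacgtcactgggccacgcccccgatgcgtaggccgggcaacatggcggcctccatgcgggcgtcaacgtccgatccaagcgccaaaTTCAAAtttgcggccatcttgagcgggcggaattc
CKS2 held CCAAT boxes 148, 70 and 52 bases before the start and a CHR 29 bases before it. CDC20 held CCAAT boxes 100 and 55 bases before the start and CHRs at 178 and 65 bases. KIF15 held 1 CHR, 35 bases before the start, and no CCAAT box, and the CENPE window held none of these elements. Apart from the CHR variant TTCGAA, given below, no other form of these elements was searched.

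Windows of 300 bases, the same 250 with 50 bases after the start, were found for 39 of the 45 genes, 44 windows in all, since 5 genes had over 1. No window was found for BUB3, UBE2C, BIRC5, TPX2, AURKA and TTK. On either strand, CCAAT stood in 31 of 44 windows (70.5%), against 34.6% of all 35116 promoter windows, and TTTGAA in 32 (72.7%), against 15.2%. The CHR variant TTCGAA, which reads the same on both strands, stood in 2 windows (4.55%), against 1.45%. Of the 44 windows, 24 (54.5%) held CCAAT together with TTTGAA or TTCGAA, against 6.38% of all windows. Genes higher and genes lower with FGF19 both carried the elements. TTTGAA or TTCGAA stood in 17 of 23 windows (73.9%) of genes called higher and 10 of 13 (76.9%) of genes called lower, and CCAAT in 13 of 23 (56.5%) and 12 of 13 (92.3%). CCAAT together with TTTGAA or TTCGAA stood in 10 of 23 (43.5%) and 9 of 13 (69.2%). Whether the elements go with the direction was not tested. These counts describe letters in a window, and some windows of the same gene overlap. The median GC content was 61.3% in the 44 windows and 58.7% in all windows.

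**Figure D2:**
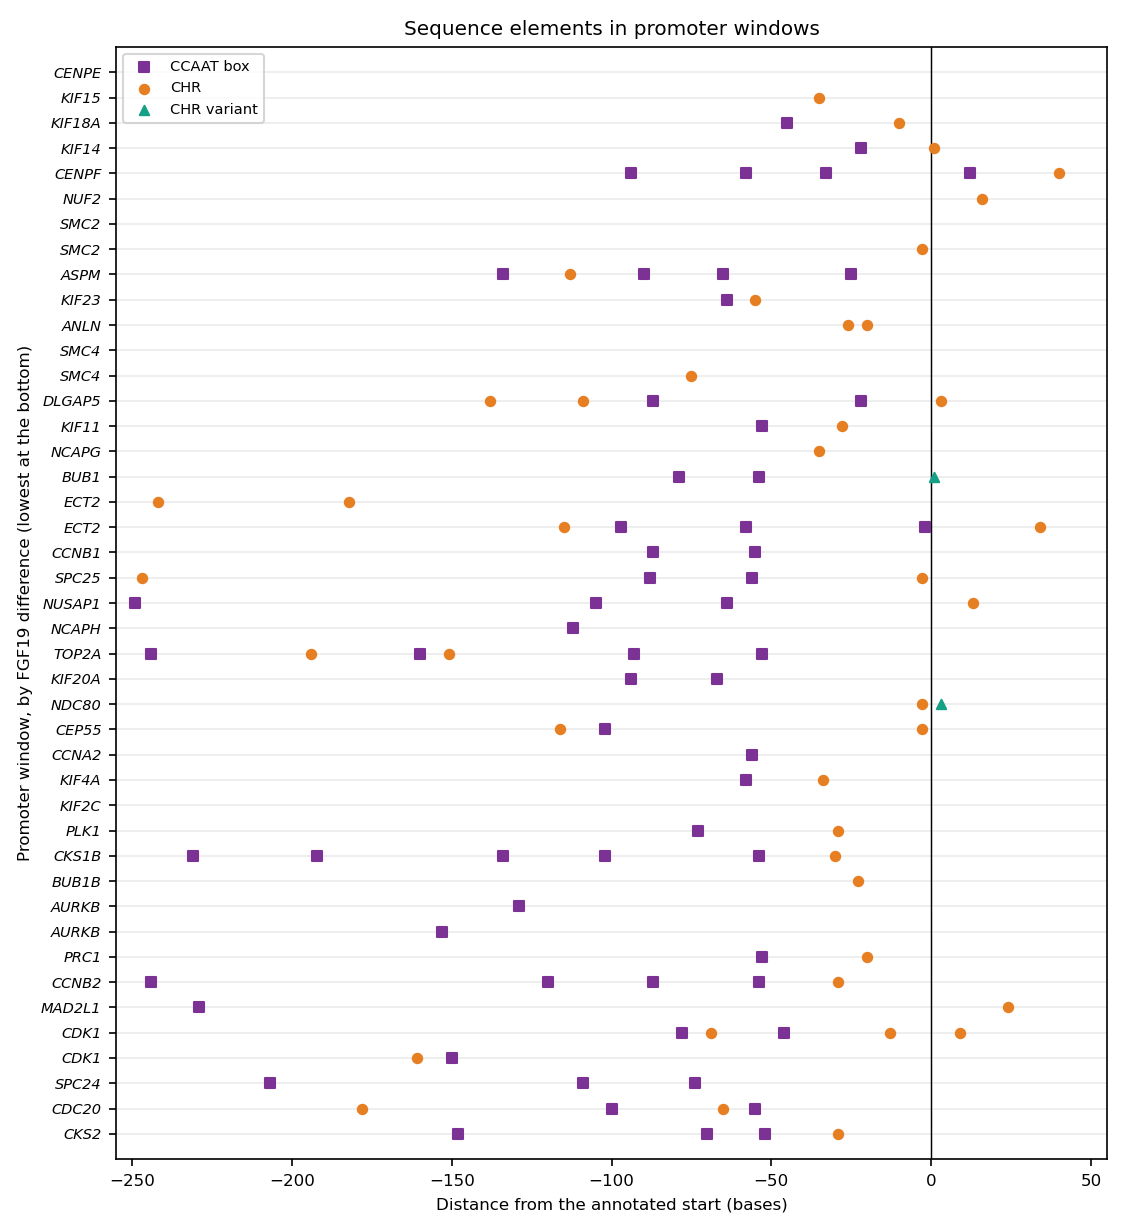
Position of CCAAT boxes (squares), CHR elements (circles) and the CHR variant (triangles) in the promoter windows of the measured genes; the horizontal axis is the distance in bases from the annotated start, and windows are ordered by the FGF19 difference of their gene, lowest at the bottom. CKS2 and CDC20 at the bottom carry both kinds of element, KIF15 near the top only a CHR and CENPE at the top neither. KIF18A, KIF14 and CENPF, also near the top, carry both kinds.

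At the outer kinetochore, both corona genes of the group rose. Among all probesets 28% were higher, and among those at least as bright as the dimmest gene of the group 32.9%. Beside CENPE, CENPF, a large coiled-coil protein of the fibrous corona, had 1603 and 1746 in FGF19 + TNFα, 1799.5 and 1775 in FGF19, 1031 and 1026 in TNFα, and 1118 and 1019 in Mock. The groups with and without FGF19 were far apart and the arrays of each pair close together. CENPF was 1.65-fold higher with FGF19 (log2 0.72, SE 0.064, adjusted p = 0.000527).

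The 4 subunits of the NDC80 complex, the rod that binds microtubules, did not move together. NUF2, the partner of NDC80 at the microtubule end of the rod, had 1596 and 1474 in FGF19 + TNFα, 1716 and 1524 in FGF19, 989 and 929 in TNFα, and 1079 and 1169 in Mock. It was 1.52-fold higher with FGF19 (log2 0.60, SE 0.073, adjusted p = 0.00124). SPC24, at the centromere end of the rod, had 178 and 166 in FGF19 + TNFα, 179 and 190.5 in FGF19, 273 and 264 in TNFα, and 299 and 359 in Mock. It was 1.66-fold lower with FGF19 (log2 −0.73, SE 0.080, adjusted p = 0.000876), with no overlap between arrays given FGF19 and arrays without it. NDC80 itself (log2 0.14, adjusted p = 0.171) and SPC25, the partner of SPC24 (0.27, adjusted p = 0.0968), were not called. Both had 1 high Mock array, 1353 for NDC80 and 375 for SPC25, which overlapped the arrays given FGF19, and without Mock replicate 1 their differences in FGF19 against Mock turned to −0.060 and −0.064.

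The spindle checkpoint split as well. TTK, the kinase that starts checkpoint signalling at kinetochores, had 849 and 872 in FGF19 + TNFα, 1044 and 931 in FGF19, 555 and 570.1 in TNFα, and 614 and 695 in Mock, and was 1.52-fold higher with FGF19 (log2 0.60, SE 0.073, adjusted p = 0.0012). BUB1, the kinase that recruits checkpoint and centromere proteins, had 1272 and 1307 in FGF19 + TNFα, 1304 and 1355 in FGF19, 977 and 1001 in TNFα, and 1012 and 1080.4 in Mock, and was 1.29-fold higher (log2 0.36, adjusted p = 0.00334). In both genes every array given FGF19 lay above every array without it. BUB1B, the paralog of BUB1 that joins the inhibitor of CDC20, had 1054 and 946 in FGF19 + TNFα, 1071 and 1097 in FGF19, 1187 and 1207 in TNFα, and 1338 and 1372 in Mock. It was 1.22-fold lower (log2 −0.29, adjusted p = 0.0104), and its 4 group pairs stood in steps with no overlap, FGF19 + TNFα lowest and Mock highest. MAD2L1, the protein that binds CDC20 at unattached kinetochores, had 602 and 546 in FGF19 + TNFα, 605 and 656 in FGF19, 773 and 787 in TNFα, and 919 and 1049 in Mock. It was 1.46-fold lower with FGF19 (log2 −0.54, adjusted p = 0.00199). BUB3, which anchors BUB1 and BUB1B, was at −0.10 and was not called (adjusted p = 0.229).

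**Figure D3:**
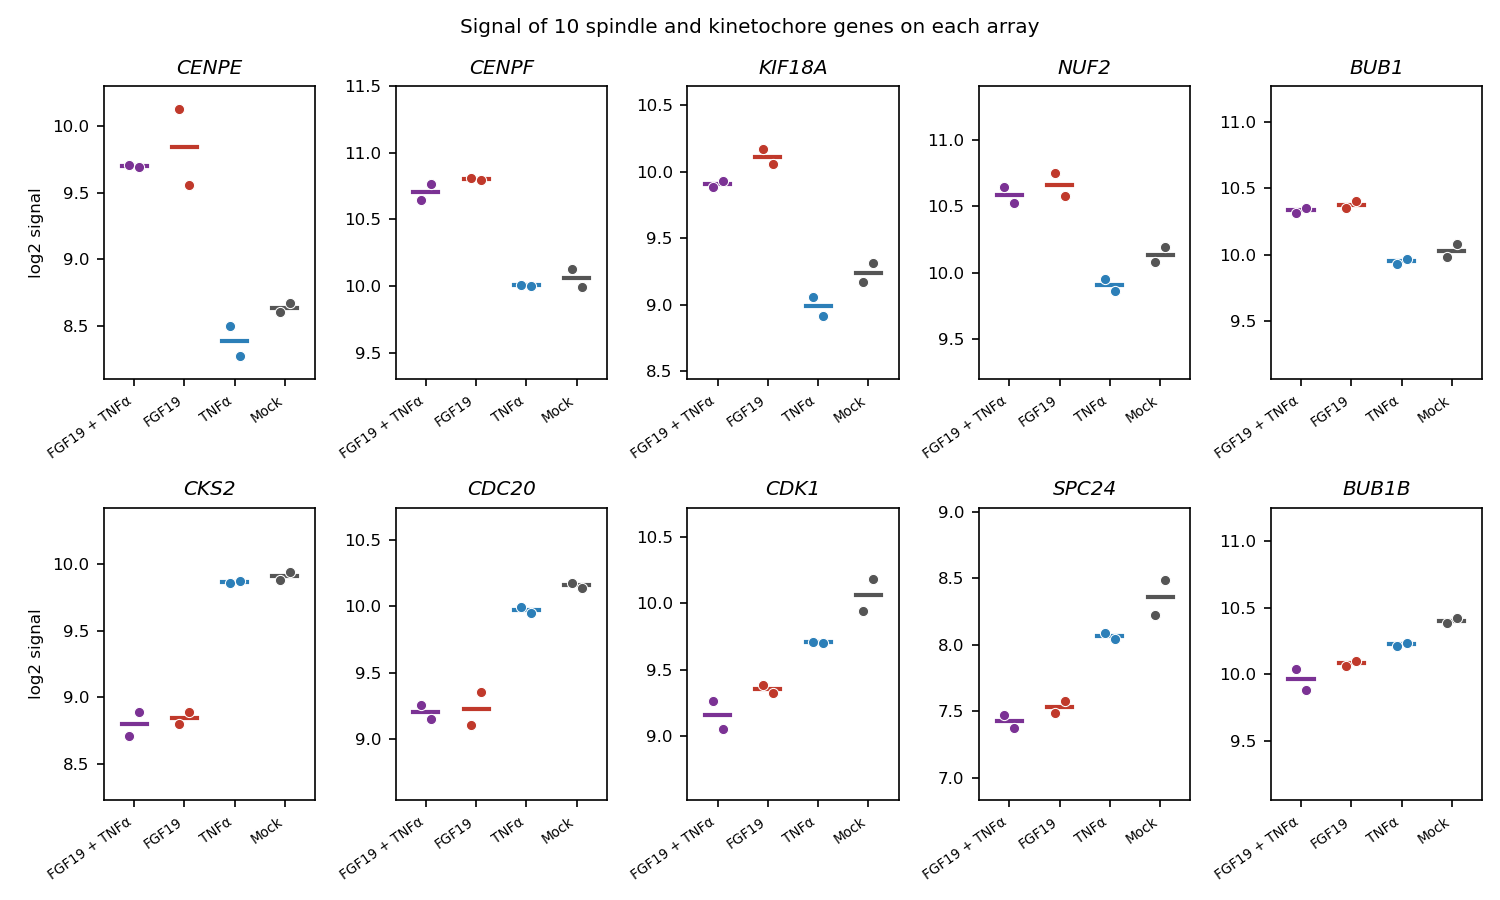
log2 signal of 10 genes on each array, with 1 point per array and a bar at the mean of its group; the groups run FGF19 + TNFα, FGF19, TNFα and Mock, and the panels cover the same log2 width. In the upper row (CENPE, CENPF, KIF18A, NUF2, BUB1) the 4 arrays given FGF19 lie above the other 4, and in the lower row (CKS2, CDC20, CDK1, SPC24, BUB1B) below them.

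CENPE, also a kinesin, is counted above with the corona genes. Among all probesets 28% were higher and 18.9% lower, and among those at least as bright as the dimmest gene of the group 32.9% and 32.2%. Of the 8 kinesins of the group other than CENPE, 6 rose and none fell, with a median of 0.48. This does not hold for mitotic kinesins at large: outside the group, KIF22, KIFC1 and KIF18B were lower, as given further on. KIF15, which backs up KIF11 in keeping the spindle bipolar, had 395 and 426 in FGF19 + TNFα, 524 and 383 in FGF19, 222 and 201 in TNFα, and 232 and 249.8 in Mock. KIF18A, which damps chromosome movements at the plus ends of microtubules, had 945 and 974 in FGF19 + TNFα, 1152 and 1065 in FGF19, 533 and 484 in TNFα, and 575 and 637 in Mock. Neither gene showed overlap between arrays with and without FGF19. KIF15 was 1.9-fold higher (log2 0.93, SE 0.11, adjusted p = 0.00126) and KIF18A 1.86-fold higher (log2 0.90, SE 0.071, adjusted p = 0.000467). KIF14, a kinesin of the midbody that binds citron kinase, had 1109.7 and 1114 in FGF19 + TNFα, 1367 and 1110.1 in FGF19, 658 and 559.6 in TNFα, and 716 and 702 in Mock, 1.78-fold higher with FGF19 (log2 0.84, SE 0.093, adjusted p = 0.000931).

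Smaller rises were seen for KIF23, a subunit of centralspindlin at the midzone (log2 0.53, adjusted p = 0.00122), for KIF11, which pushes spindle poles apart (0.43, adjusted p = 0.0123), and for KIF20A, a midzone kinesin (0.19, adjusted p = 0.0362). The KIF20A call was lost when the replicate number entered the fit as a block. KIF2C, which takes microtubules apart at centromeres, was at −0.18 (adjusted p = 0.132). KIF4A was at −0.03 (adjusted p = 0.797), and its sign changed when FGF19 replicate 1 or TNFα replicate 2 was left out. The arrays of KIF2C and KIF4A overlapped between groups with and without FGF19.

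Of the 4 genes for Aurora and Polo kinases and survivin, 2 fell and none rose with FGF19 averaged. Over all probesets 18.9% were lower and 28% higher, and over those at least as bright as the dimmest gene of the group 32.2% and 32.9%. At the probesets used, none of the 4 genes was called in either separate comparison. AURKB, the catalytic subunit of the chromosomal passenger complex, had 560.2 and 565 in FGF19 + TNFα, 459 and 579 in FGF19, 658 and 700.1 in TNFα, and 687 and 646 in Mock. It was 1.25-fold lower (log2 −0.32, SE 0.089, adjusted p = 0.0274), and this call was lost without moderation of the variances. PLK1, the Polo kinase of mitotic entry, was 1.18-fold lower (log2 −0.23, adjusted p = 0.0256). AURKA, the centrosomal Aurora kinase, and BIRC5, which encodes survivin of the passenger complex, were not called, at −0.13 (adjusted p = 0.216) and −0.18 (adjusted p = 0.101). BIRC5 had a second probeset, at the 33.9 percentile of brightness against 84.9 for the one used, and that probeset was called higher, at 0.56 (adjusted p = 0.0122). It was also called higher in FGF19 + TNFα against TNFα (0.58, adjusted p = 0.0494 in limma), but not in FGF19 against Mock (0.53, adjusted p = 0.0625). Taking the median of both turned the difference of BIRC5 to 0.19.

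Of the 6 genes for cyclins, CDK1 and CKS proteins, 4 fell and 1 rose. Over all probesets 18.9% were lower and 28% higher, and over those at least as bright as the dimmest gene of the group 32.2% and 32.9%. CDK1, the kinase that drives mitotic entry, had 616 and 533 in FGF19 + TNFα, 669.8 and 642 in FGF19, 839 and 835 in TNFα, and 985 and 1162 in Mock. The groups did not overlap and stood in the order FGF19 + TNFα, FGF19, TNFα and Mock, lowest to highest. CDK1 was 1.54-fold lower with FGF19 (log2 −0.63, SE 0.084, adjusted p = 0.00172). The B-type cyclins, its activating partners, parted: CCNB2 was 1.42-fold lower (log2 −0.51, SE 0.071, adjusted p = 0.002), and CCNB1 1.24-fold higher (log2 0.31, SE 0.067, adjusted p = 0.0114).

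CCNB2 had 1122 and 1109.9 in FGF19 + TNFα, 1069.6 and 1236 in FGF19, 1487 and 1593 in TNFα, and 1715 and 1667 in Mock. CCNB1 had 3405 and 3026 in FGF19 + TNFα, 3335 and 3178 in FGF19, 2487 and 2432 in TNFα, and 2689 and 2865 in Mock. For each cyclin the arrays with and without FGF19 were separate, in opposite order. CCNA2, the cyclin of S phase and G2, was at 0.12 (adjusted p = 0.214) and its arrays overlapped. CKS1B, the paralog of CKS2, was 1.21-fold lower at its brightest probeset (log2 −0.28, adjusted p = 0.0301), a call lost under quantile normalization. Its other 2 probesets were at −0.28 (adjusted p = 0.0266) and −0.11 (adjusted p = 0.188), so that the call was absent at 1 of 3, and none of the 3 was called in either separate FGF19 comparison. CKS1B has processed copies in the genome, and its probesets could read them in part.

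Of the APC/C partners, CDC20, the activator that the checkpoint holds back, had 613 and 569 in FGF19 + TNFα, 551 and 656 in FGF19, 1021 and 989.7 in TNFα, and 1159.8 and 1128 in Mock. Its 4 arrays given FGF19 lay well below the others, 1.8-fold lower (log2 −0.85, SE 0.077, adjusted p = 0.000553). UBE2C, the ubiquitin-conjugating enzyme that works with the APC/C, was at −0.10 and was not called (adjusted p = 0.214).

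**Figure D4:**
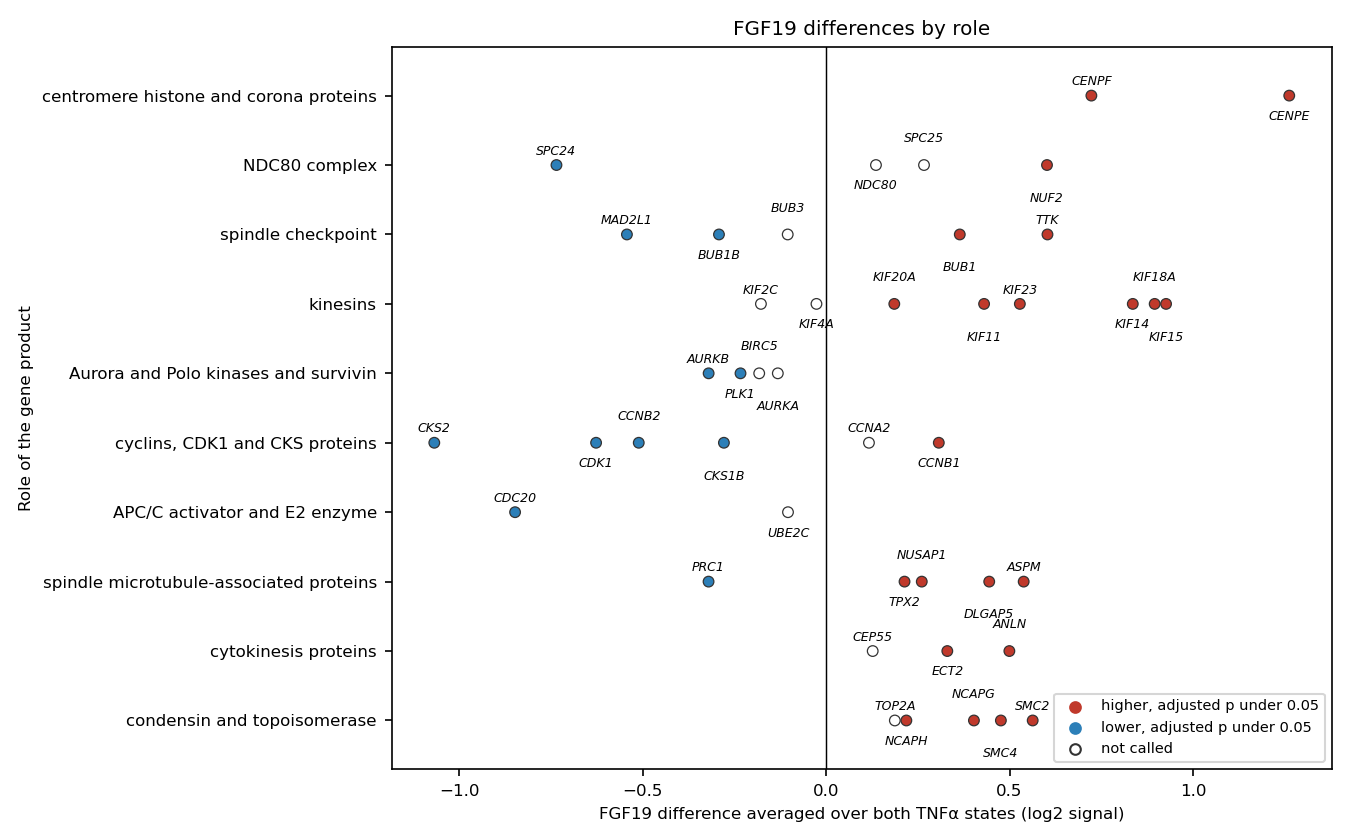
FGF19 difference averaged over both TNFα states for each gene (log2 signal, horizontal axis), in rows by the role of its product; red marks an adjusted p under 0.05 above 0, blue below 0 and white not called. The kinesins, cytokinesis proteins and condensin genes shown have calls only above 0. The row of Aurora and Polo kinases and survivin has 2 calls of 4 genes, both below 0. The NDC80 complex, the checkpoint, the cyclin group and the spindle microtubule-associated proteins have calls on both sides.

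Among proteins that bundle or organise spindle microtubules, ASPM (log2 0.54, adjusted p = 0.00149), which acts at spindle poles, DLGAP5 (0.44, adjusted p = 0.00286), which stabilises kinetochore fibres, NUSAP1 (0.26, adjusted p = 0.0102) and TPX2 (0.21, adjusted p = 0.0258), the activator of AURKA, rose. PRC1, which bundles antiparallel microtubules of the midzone, fell (−0.32, SE 0.066, adjusted p = 0.00886). PRC1 had 1754 and 1658 in FGF19 + TNFα, 1632 and 1835 in FGF19, 2062 and 2070.5 in TNFα, and 2185 and 2268 in Mock. Its arrays were lower with FGF19 without overlap, whereas its midzone partner KIF23 (2899 and 2765 in FGF19 + TNFα, 3047 and 2732 in FGF19, 1965 and 1899 in TNFα, and 2046 and 2021 in Mock) was higher without overlap.

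For cytokinesis, ANLN, the scaffold of the contractile ring, was 1.41-fold higher (log2 0.50, adjusted p = 0.00129) and ECT2, the exchange factor that activates RhoA at the cleavage site, 1.26-fold higher (log2 0.33, adjusted p = 0.00816). CEP55, which recruits the abscission machinery, was at 0.13 and was not called (adjusted p = 0.113), although its 4 arrays given FGF19 (1804 to 1884) lay above the 4 without it (1558 to 1778).

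In condensin, SMC2 and SMC4, the ATPase subunits of both condensin complexes, had log2 differences of 0.56 (adjusted p = 0.00136) and 0.48 (adjusted p = 0.00421). SMC2 had 1902 and 1775 in FGF19 + TNFα, 2145 and 1904 in FGF19, 1310.1 and 1211 in TNFα, and 1339 and 1363 in Mock, with no overlap. The condensin I subunits NCAPG (0.40, adjusted p = 0.00182) and NCAPH (0.22, adjusted p = 0.0258) rose too. This does not hold for condensin at large: the listed condensin genes outside the group lay below 0, as given further on. TOP2A, the topoisomerase that untangles sister chromatids, was at 0.19 and was not called (adjusted p = 0.0709).

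No spindle or kinetochore gene was called with TNFα. In TNFα against Mock, limma called 0 of 44 genes (0.967% of all probesets were higher and 0.0961% lower), and 0 in every alternative setting run. At an unadjusted p under 0.05, a level not counted over all probesets, there were 8 genes, CDK1, CCNA2, MAD2L1, NDC80, SPC24, KIF18A, NCAPH and NUSAP1, each lower. Of the 44 values, 41 nonetheless lay below 0, against 57.4% of all probesets, with a median of −0.16 for the genes and −0.04 for all probesets. Both TNFα arrays lay below both Mock arrays for 37 genes (84.1%), against 30.9% of all probesets, and above them for 1 gene (2.27%), against 20.6%. These counts run across genes, which are not independent and were read on the same arrays. The shares were not counted over probesets of like brightness, so the counts are a description only. The lowest values were −0.35 for CDK1 (SE 0.12, adjusted p = 0.308) and −0.34 for CCNA2 (SE 0.098, adjusted p = 0.254). CCNA2 had 899.9 and 839 in TNFα, and 1106 and 1088 in Mock.

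In FGF19 + TNFα against FGF19, the values were smaller. Limma called 0 of 44 genes (0.279% of all probesets were higher and 0.003% lower), with 0 at an unadjusted p under 0.05 and 0 in every alternative setting run. Below 0 lay 39 of 44 genes, against 49.6% of all probesets, with a median of −0.067 for the genes and 0.0013 for all probesets. Both FGF19 + TNFα arrays lay below both FGF19 arrays for 14 genes (31.8%), against 13.7% of all probesets, and above them for 1 gene (2.27%), against 14.8%. The same limits hold for these counts across genes. For no gene were all 4 arrays given TNFα above the 4 without it (2.09% of all probesets) or below them (1.18%). CDK1 was at −0.19 and CCNA2 at −0.14. Averaged over both FGF19 states, a comparison chosen after seeing the data, TNFα gave 0 calls among the 44 genes (1.31% of all probesets were higher and 0.162% lower), a lowest adjusted p of 0.243, 8 genes at an unadjusted p under 0.05, each lower, and a median of −0.11.

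**Figure D5:**
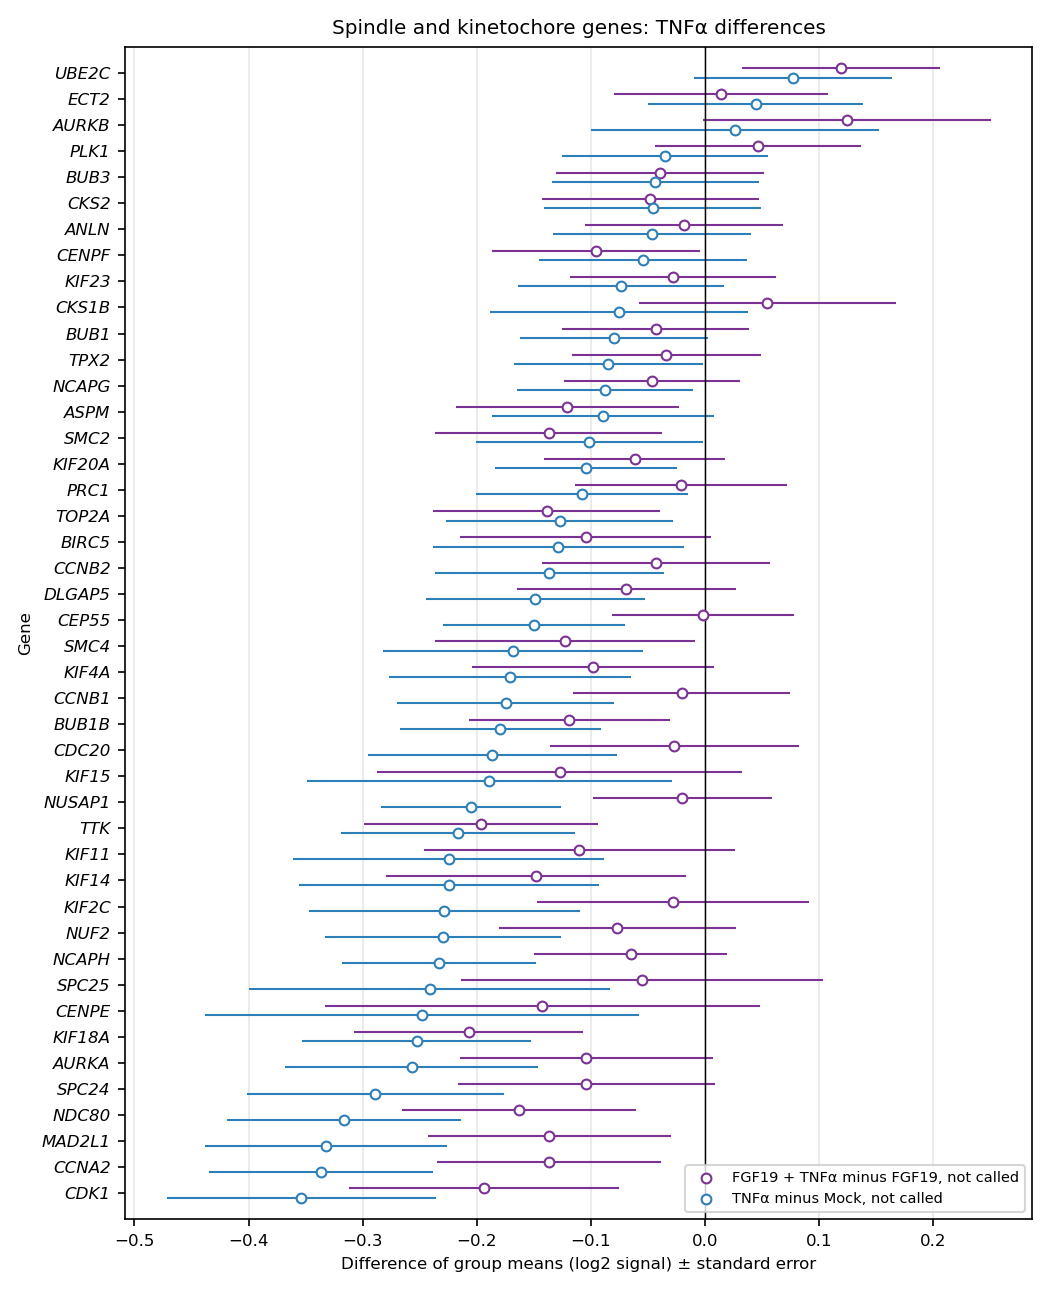
Difference of group means in log2 signal with its standard error for the 44 genes, ordered by TNFα minus Mock; purple points are FGF19 + TNFα minus FGF19 and blue points TNFα minus Mock, and none has an adjusted p under 0.05. Most points lie left of 0, with CDK1 lowest at −0.35 in TNFα minus Mock.

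Among the 4 groups together, 19 of 44 genes (43.2%) differed by the F test of limma at an adjusted p under 0.015, against 20.9% of all probesets. The lowest adjusted p-values were those of CKS2 (0.00215), KIF18A (0.00243), CENPF (0.00297) and CDC20 (0.00306). This count was the least stable: it was 2 without either Mock array, 3 to 5 without 1 array of TNFα or of FGF19 + TNFα, and 6 without moderation of the variances.

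Other genes of mitosis, in lists that leave out the 44, also moved in both directions with FGF19. Their counts stand beside 28% higher and 18.9% lower over all probesets, and 32.9% and 32.2% over the probesets at least as bright as the dimmest of the 44 genes. Of 42 other kinetochore and centromere genes, 19 were higher and 13 lower (median 0.17). SGO2 and SGO1, the shugoshins that guard centromeric cohesion, were at 1.24 (adjusted p = 0.000435) and 1.19 (adjusted p = 0.000469), and ZWINT, a binding partner of the kinetochore scaffold KNL1, at −0.96 (adjusted p = 0.000445). SGO2 had 834 and 860.2 in FGF19 + TNFα, 920.4 and 768 in FGF19, 342 and 339 in TNFα, and 345 and 403 in Mock, and ZWINT had 419 and 427 in FGF19 + TNFα, 435 and 502 in FGF19, 803 and 809 in TNFα, and 890.3 and 966 in Mock. The arrays with and without FGF19 did not overlap in either gene. CLIP1, a plus-end protein of microtubules, was at 0.85 (adjusted p = 0.000447).

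Of 39 other spindle, motor and cytokinesis genes, 13 were higher and 19 lower (median −0.16), with the kinesin genes KIF20B at 1.16 and KIF2A at 1.05, the citron kinase gene CIT at 0.79 and the microtubule-binding MAP4 at 0.69 having the smallest p. Genes of the same list that were lower, named after their values were seen, included the chromosome-binding kinesin KIF22 (−1.03, adjusted p = 0.000692), KIFC1 (−0.59, adjusted p = 0.00329), a minus-end kinesin, KIF18B (−0.42, adjusted p = 0.00907) and TACC3 (−1.004, adjusted p = 0.00113), which cross-links kinetochore fibres. Of 49 other mitotic kinases, phosphatases and APC/C genes, 16 were higher and 19 lower (median −0.08). There the smallest p belonged to genes that fell: ESPL1, the separase that cuts cohesin (−0.81), CDCA3 (−0.90), the PP2A scaffold gene PPP2R1A (−1.31) and FZR1, the APC/C activator of mitotic exit and G1 (−1.14). A further list of 20 genes held other condensin and cohesin genes and their regulators, and also KIF22, counted above as well, TOP2B, AKAP8 and MKI67. Of these 20, 12 were higher and 4 lower (median 0.38). Of the 4 genes just named, KIF22 (−1.03) and AKAP8 (−0.32) were lower, MKI67 (0.50) was higher and TOP2B was not called. NIPBL, which loads cohesin, was at 1.01, and the cohesin genes PDS5B and SMC3 were at 0.81 and 0.71. NCAPH2, the condensin II counterpart of NCAPH, was at −1.20. The higher genes did not include a condensin subunit. Beside NCAPH2, the condensin genes NCAPD2 (−0.19, adjusted p = 0.0525), NCAPG2 (−0.13, adjusted p = 0.183) and NCAPD3 (−0.11, adjusted p = 0.167) were not called in limma. They were named after their values were seen. Of 24 genes for transcription factors of mitotic genes or for their regulators, 11 were higher and 6 lower (median 0.20). E2F8 at 1.20, E2F7 at 0.95, RB1 at 1.12 and RBL1 at 0.71 had the smallest p. The 6 lower genes of that list were also named after their values were seen. They were E2F1 (−0.49, adjusted p = 0.00381), E2F4 (−0.45, adjusted p = 0.00613), E2F2 (−0.29, adjusted p = 0.0251), E2F6 (−0.22, adjusted p = 0.0303), LIN37 (−0.29, adjusted p = 0.0274) and MYBL2, which encodes B-MYB (−0.30, adjusted p = 0.0166). The genes named for the smallest p of their list each had an adjusted p of 0.000592 or less in limma.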

How the data were processed

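Gene expression in DU145 cells was measured on 8 arrays in 4 groups of 2, grouped by the sample labels. The authors deposited linear signal intensity for 33297 probesets of the Human Gene 1.0 ST array, made per the labels with Affymetrix Expression Console and PLIER. For its version and for normalization between arrays the entry is: not given in the sources used here. Each of the 8 columns entered the fit.

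Intensities were taken to log2 after 240 zeros had been replaced by the smallest positive signal of their own array, without further scaling. The lowest of these signals was 0.01. Group means were fitted with limma 3.58.1 in R 4.3.3 (lmFit, eBayes) to all 8 arrays. Adjusted p-values are Benjamini-Hochberg over all probesets, called at 0.05, or 0.015 for the F test, the threshold of the study. Each gene is shown at its brightest probeset with 1 symbol in the platform annotation (19460 probesets had 1 symbol, 1754 several and 12083 none; 19429 of those with 1 were matched to RefSeq by Entrez identifier). Every gene of the group is named, and of each other list the up to 4 genes with the smallest p. The genes and lists were chosen with earlier results of these data known. The fit was tested on simulated data. An array signal carries no count of molecules, so the number of arrays limits the precision.

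The fit was repeated without moderation or with a trended, robust prior, after quantile or cyclic loess normalization, with 16 added to each signal, without the dimmest 20 percent of probesets, on just the groups compared, with the median of all probesets of a gene, with a replicate block and without each array. Figures were drawn with matplotlib 3.10.9. Protein lengths were not analysed here.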

Additional observations from a re-analysis of the deposited data

How the results depend on the processing

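No call reversed under any alternative. Without an array at a time, the range was 7 to 16 higher and 6 to 10 lower in FGF19 against Mock, 7 to 20 higher and 2 to 7 lower in FGF19 + TNFα against TNFα, 19 to 22 higher and 8 to 12 lower with FGF19 averaged, and 2 to 18 in the F test. A fit of only the groups compared gave 10 higher in FGF19 against Mock, in place of 16, and no moderation gave 6 in the F test, in place of 19. Same-numbered arrays of different groups deviated together in 1 of 6 pairs of groups (r of −0.020 to 0.195), so the numbers were not taken as pairs. With the replicate number as a block the F test gave 12, FGF19 against Mock 16 higher and 7 lower, FGF19 + TNFα against TNFα 18 and 6, and FGF19 averaged 21 and 11. The cause of these shifts was not tested. The sign changed only for genes that were not called. BIRC5 with the median of its probesets was at 0.20 in FGF19 + TNFα against TNFα, 0.17 in FGF19 against Mock and 0.19 averaged. With quantile normalization KIF4A in FGF19 + TNFα against TNFα was at −0.030 and CCNA2 in FGF19 against Mock at −0.0089. Without an array at a time, AURKA (−0.187 to 0.077) and KIF4A (−0.106 to 0.126) changed sign in FGF19 + TNFα against TNFα, CCNA2 (−0.058 to 0.092), NDC80 (−0.060 to 0.178) and SPC25 (−0.064 to 0.412) in FGF19 against Mock, and KIF4A (−0.084 to 0.032) averaged. Quantile and cyclic loess normalization moved the median of all probesets with FGF19 averaged to 0.0062 and 0.0073, in place of 0.096, and that of the 44 genes to 0.25 and 0.21, in place of 0.20. The planned description of protein length and its alternatives was not run.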
